A study of Homo sapiens with 4 samples.

Results

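Receptor tyrosine kinases are single-pass membrane proteins that bind a growth factor, an ephrin or collagen outside the cell and phosphorylate tyrosines inside it. Here 10 such genes, EGFR, ERBB2, ERBB3, MET, AXL, IGF1R, INSR, FGFR1, EPHA2 and DDR1, were described in ribosome footprint data from PANC-1, an established human pancreatic ductal adenocarcinoma line. The members were listed by name and found by matching the Ensembl identifiers of the footprint table to gene symbols. All 10 were among the 20307 genes of the table, which holds 58 receptor tyrosine kinase genes in all. There were 4 libraries. The 2 negative controls and the 2 FBXO32-depleted libraries all come from PANC-1 cells arrested with 100 μg/mL cycloheximide for 2 min. FBXO32, also called atrogin-1, is the F-box subunit by which a ubiquitin ligase recognises its substrates. How FBXO32 was depleted, and whether in 1 clone, is not given in the sources used here. Libraries are called control 1, control 2, depleted 1 and depleted 2. Over tested genes log2(TPM + 1) correlated at 0.958 for the control pair, at 0.961 for the depleted pair, at 0.921 between control 2 and depleted 1, and at 0.835 between control 1 and depleted 2. Each value is in TPM, a length-scaled share of a library's footprints, and different genes are set side by side within a library on that basis. The length used for the scaling is not given in the sources used here, and comparisons between genes depend on it. TPM keeps no read depth, which is therefore unknown, and counting error cannot be given. A footprint level combines how much mRNA there is with how often it is translated, and because TPM is a share, a lower TPM cannot be told apart from a rise of other genes.

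On ligand binding, paired receptors phosphorylate each other and recruit adaptor proteins such as GRB2 and SHC1. These pass the signal to the ERK and PI3K-AKT pathways. Clathrin coats and the ESCRT machinery then take the activated receptor to the lysosome. MET and AXL are known for cell migration and invasion in pancreatic cancer. FBXO32 itself stood at 18.1 and 21.6 TPM in control cells and at 14.3 and 12.9 TPM in depleted cells. Neither depleted library reached a control library, yet with -0.51 ± 0.45 (log2 fold change, SE) the gene missed the threshold (adjusted p = 0.429 by limma), and the depletion rests on the labels.

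The kinase domain is the part that all members share, and its catalytic loop shows how alike and how distinct their coding sequences are. The 24 coding bases of the loop are printed for 9 of the members, 5′ to 3′ on the coding strand, from GENCODE release 29 transcripts on GRCh38, with the codon of the catalytic residue in capitals.
EGFR, chr7:55191752-55191775, plus strand: caccgcGACctggcagccaggaac
ERBB2, chr17:39725082-39725105, plus strand: cacaggGACttggccgctcggaac
ERBB3, chr12:56097818-56097841, plus strand: catagaAACctggctgcccgaaac
MET, chr7:116782069-116782092, plus strand: cacagaGACttggctgcaagaaac
AXL, chr19:41253680-41253703, plus strand: caccggGACctggcggccaggaac
IGF1R, chr15:98939300-98939323, plus strand: cacagaGACcttgctgcccggaat
INSR, chr19:7122651-7122674, minus strand: catcggGACctggcagcgagaaac
EPHA2, chr1:16132157-16132180, minus strand: caccgtGACctggctgcccgcaac
DDR1, chr6:30898146-30898169, plus strand: catcggGACctggccacgcggaac
The capital codon encodes aspartate, the catalytic base of active kinases, in 9 of the 10 members. In ERBB3 it encodes asparagine, and ERBB3 is known as a receptor of very weak kinase activity that signals through its partners. DDR1 has a threonine codon as the sixth of the loop, where the other members have alanine.

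The coding sequences of the members share only short runs of bases. The loops of IGF1R and INSR differ at 9 of 24 bases, and those of EGFR and ERBB2 at 6, although each pair encodes the same residues there. Over all 45 pairs of members the loops differ at 2 to 9 bases, and those of EGFR and AXL, of different families, at 2. Over whole coding sequences, the longest run shared by any 2 of the members was 23 nt, and none of the 45 pairs shared a run of 28 nt, a common footprint length. The runs of 23 nt are printed as the longest exact matches, and longer stretches that differ at a few bases were not searched for.
EGFR (chr7:55198839-55198861, plus strand) and ERBB2 (chr17:39725829-39725851, plus strand): gatgtctacatgatcatggtcaa
EGFR (chr7:55192817-55192839, plus strand) and ERBB3 (chr12:56098551-56098573, plus strand): caccagagtgatgtctggagcta
IGF1R (chr15:98707765-98707787, plus strand) and INSR (chr19:7267668-7267690, minus strand): ttccccaacctcacggtcatccg
Of the 28-nt windows in a member's longest coding sequence, 1.41% in EPHA2 also occur in another gene's transcripts, those of EPHB2 and EPHA8. The share was 0.125% in ERBB3 and 0.118% in FGFR1, and it was 0 in the other members. Fragments longer than 17 nt were kept, per the labels, so shorter footprints could match both genes of a pair, and how reads that match several genes were counted is not given in the sources used here.

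Footprint levels of the 10 receptors spanned 44.4-fold in the controls, from EPHA2 at the top to INSR at the bottom. EPHA2, AXL and DDR1 together made up 69.4% and 69.5% of the members' summed TPM in control cells, and 69.8% and 66.9% in depleted cells. The sum itself was 436.8 and 358.4 TPM in control cells and 358.4 and 371.4 TPM in depleted cells. In the order of control means, EPHA2 was followed by AXL, DDR1, EGFR, FGFR1, IGF1R, ERBB2, MET, ERBB3 and INSR. Of the 9 pairs of neighbours in that order, 4 overlapped between the 2 control libraries, namely AXL with DDR1, IGF1R with ERBB2, MET with ERBB3, and ERBB3 with INSR. In the depleted libraries the same order held by means, and ERBB3 with INSR was the 1 pair of neighbours that overlapped. EPHA2 lay above 89.1% of all tested genes in the controls, EGFR above 73.1% and INSR above 13.5%.

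**Figure D1:**
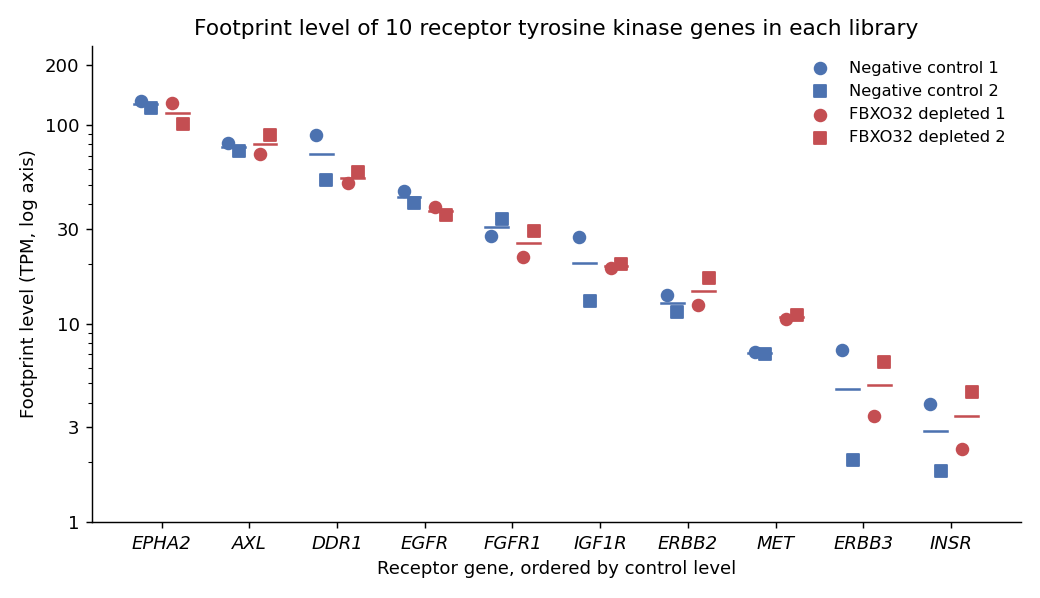
TPM of each receptor gene (log axis) in the 2 negative control libraries (blue) and the 2 FBXO32-depleted libraries (red), with circles for replicate 1, squares for replicate 2 and lines for the group means. Levels run from EPHA2 at over 100 TPM to INSR at under 5 TPM, and the red and blue points overlap for 8 of the 10 genes.

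None of the 10 receptors differed between the groups past the test, whereas 25.7% of all 11623 tested genes did. Of all tested genes 6.21% were higher and 19.5% lower in depleted cells (limma on log2(TPM + 1), Benjamini-Hochberg adjusted p under 0.05), 722 and 2268 genes, which became 1251 and 1904 with median-ratio scaling. Adjusted p-values of the members ran from 0.411 for MET to 0.958 for IGF1R, and 0 of the 10 had an unadjusted p under 0.05, the lowest being 0.243 for MET. The log2 fold changes lay between -0.34 for DDR1 and 0.55 for MET, with 6 above 0, 4 below 0 and a median of 0.04, against -0.16 over all tested genes. The depleted libraries overlapped the controls in 8 of the 10 genes, compared with 35.6% of all tested genes. MET, with both depleted values above both control values, and EGFR, with both below, were the exceptions. Confidence intervals of 95% reached from -1.14 (DDR1) to 1.46 (MET), so the members are not shown to be equal between the groups.

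**Figure D2:**
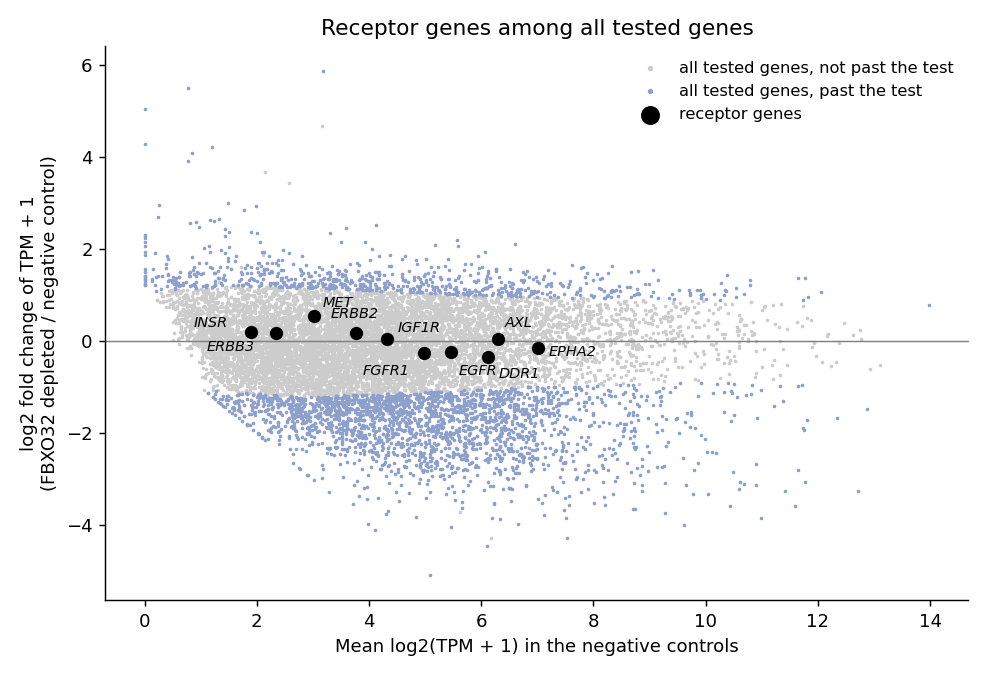
Each point is 1 of the 11623 tested genes, placed by its mean log2(TPM + 1) in the negative controls and its log2 fold change between FBXO32-depleted and negative control libraries. Blue points passed the test, grey ones did not, and the 10 receptor genes (black) lie between -0.34 and 0.55, inside the grey band.

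EGFR, the epidermal growth factor receptor, was the ERBB family member with the most footprints. EGFR (ENSG00000146648, GRCh38 chromosome 7, 55019021 to 55211628, plus strand, 28 coding exons) had 46.5 and 40.4 TPM in control cells and 38.7 and 35.1 TPM in depleted cells. The groups did not overlap, yet the gap between them was small beside the spread that limma pooled over genes. The log2 fold change was -0.23 ± 0.42 (SE), with a 95% interval from -1.06 to 0.60 (adjusted p = 0.737 by limma).

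ERBB2, or HER2, has no known ligand and is the preferred partner of the other ERBB receptors. ERBB2 (ENSG00000141736, chromosome 17, 39687914 to 39730426, plus strand, 27 coding exons) had 13.98 and 11.4 TPM in control cells and 12.4 and 16.9 TPM after depletion. The values interleaved, with the highest in depleted 2, and the log2 fold change was 0.19 ± 0.46 (adjusted p = 0.806 by limma). On the opposite strand ERBB2 overlaps MIEN1 and PGAP3, a pair named after their values were seen. MIEN1 rose by 1.48 ± 0.39 on the log2 scale (adjusted p = 0.00171 by limma) and PGAP3 by 1.49 ± 0.47 (adjusted p = 0.00992 by limma). Whether the counting used strand is not given in the sources used here, so reads from stretches that the genes share cannot be told apart.

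ERBB3, or HER3, binds neuregulins and carries many docking sites for PI3K. ERBB3 (ENSG00000065361, chromosome 12, 56076799 to 56103505, plus strand, 28 coding exons) had 7.36 and 2.06 TPM in control cells and 3.44 and 6.38 TPM in depleted cells. Both depleted values fell inside the span of the controls, whose spread was the widest among the members relative to the mean (4.71 ± 3.75 TPM, SD, n = 2). Its log2 fold change of 0.18 ± 0.48 (adjusted p = 0.823 by limma) turned to -0.55 without control 2 and to 0.91 without control 1, and neither passed.

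MET, the receptor for hepatocyte growth factor, had the highest log2 fold change of the members. MET (ENSG00000105976, chromosome 7, 116672390 to 116798386, plus strand, 20 coding exons) had 7.18 and 7.01 TPM in control cells and 10.6 and 11.1 TPM in depleted cells. Replicates lay close together in both groups, and both depleted values were above both controls. The log2 fold change was 0.55 ± 0.47, or 1.46-fold with a 95% interval from 0.774 to 2.75 (adjusted p = 0.411 by limma). The value stayed between 0.51 and 0.58 whichever library was left out, and did not pass in any of those fits.

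AXL, a receptor for GAS6 that is known for mesenchymal and drug-tolerant tumour cells, was the second most abundant of the members. AXL (ENSG00000167601, chromosome 19, 41219203 to 41261766, plus strand, 20 coding exons) had 80.9 and 74.1 TPM in control cells and 71.2 and 88.9 TPM in depleted cells. The depleted values enclosed the control values, and the log2 fold change was 0.04 ± 0.40 with a 95% interval from -0.75 to 0.83 (adjusted p = 0.957 by limma).

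IGF1R and INSR, the receptors for insulin-like growth factors and for insulin, are close relatives that are cut from 1 precursor chain each and can form mixed receptors. IGF1R (ENSG00000140443, chromosome 15, 98648539 to 98964530, plus strand, 21 coding exons) had 27.2 and 13.1 TPM in control cells and 19.0 and 20.0 TPM in depleted cells. INSR (ENSG00000171105, chromosome 19, 7112255 to 7294034, minus strand, 22 coding exons) had 3.93 and 1.82 TPM in control cells and 2.33 and 4.50 TPM in depleted cells. In both genes control 1 stood above control 2, and for IGF1R both depleted values lay between them. The log2 fold change was 0.04 ± 0.45 for IGF1R (adjusted p = 0.958 by limma) and 0.20 ± 0.48 for INSR (adjusted p = 0.802 by limma). Without control 2 they were -0.46 and -0.20, and without control 1 they were 0.55 and 0.60, none of them past the test.

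FGFR1, a receptor for fibroblast growth factors, took the fifth place in the controls. FGFR1 (ENSG00000077782, chromosome 8, 38400215 to 38468834, minus strand, 18 coding exons) had 27.7 and 33.4 TPM in control cells and 21.6 and 29.2 TPM in depleted cells. Depleted 2 lay between the controls and depleted 1 below them. The log2 fold change was -0.27 ± 0.44, with a 95% interval from -1.12 to 0.59 (adjusted p = 0.696 by limma).

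EPHA2, an ephrin receptor that is abundant in epithelial tumours, had the highest level of the members in every library. EPHA2 (ENSG00000142627, chromosome 1, 16124337 to 16156087, minus strand, 17 coding exons) had 132.8 and 122.4 TPM in control cells and 128.3 and 101.5 TPM after depletion. Depleted 2 lay below the controls and depleted 1 between them, and the log2 fold change was -0.16 ± 0.39 (adjusted p = 0.807 by limma). Its sign turned to 0.04 with median-ratio scaling. DDR1, a receptor that binds collagen rather than a soluble factor, had the most negative log2 fold change of the members. DDR1 (ENSG00000204580, chromosome 6, 30876421 to 30900156, plus strand, 17 coding exons) had 89.3 and 52.7 TPM in control cells and 50.8 and 57.9 TPM after depletion. Control 1 stood apart from the other 3 libraries, which lay within 50.8 to 57.9 TPM. The log2 fold change was -0.34 ± 0.41 (adjusted p = 0.583 by limma), and it was 0.04 without that library.

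All 10 members have long coding sequences, from 2559 nt in FGFR1 to 4224 nt in MET, while the median over all tested genes was 1377 nt. Length moved with the group difference across the table. A smooth trend fitted on coding length put the depleted libraries below the controls by 0.66 at the length of FGFR1 and by 0.93 at that of MET, in log2 units. With this trend taken out of each library, the log2 fold changes of all 10 members were above 0. They ran from 0.37 for DDR1 to 1.47 for MET, with a median of 0.84 against 0.03 over all genes. The 19 other receptor tyrosine kinases that were tested had a median of 0.91 in that fit. MET then passed (1.47 ± 0.39, adjusted p = 0.00880 by limma), and the other 9 did not, among them ERBB2 at 1.06 ± 0.39 (0.0550), INSR at 1.12 ± 0.45 (0.0763) and IGF1R at 0.95 ± 0.39 (0.0794). In that fit 7.9% of 11525 genes were higher and 12.8% lower, 20.7% in all. The setting treats the whole trend as unrelated to depletion, and what the trend comes from was not tested.

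**Figure D3:**
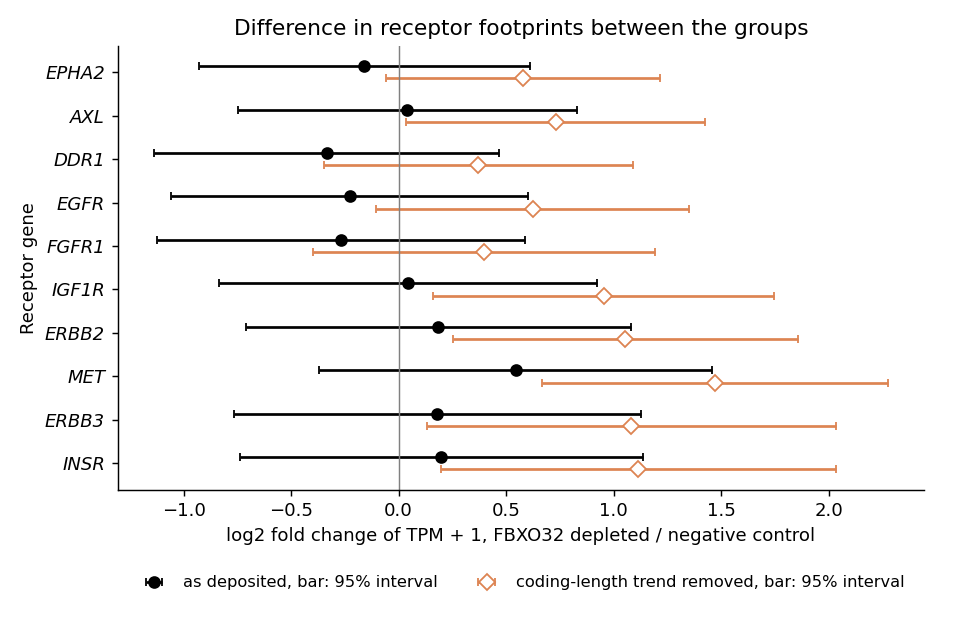
Log2 fold change of TPM + 1 between FBXO32-depleted and negative control libraries for each receptor gene, with 95% intervals, as deposited (black circles) and with the coding-length trend removed (orange diamonds). Every black interval includes 0, while every orange point is above 0. The orange intervals of EPHA2, DDR1, EGFR and FGFR1 include 0, and those of the other members lie above it, MET farthest. The intervals are not adjusted for the number of genes tested.

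A TPM ratio between related receptors of 1 library does not depend on how libraries are scaled, but it can still carry the coding-length trend. The EGFR to ERBB2 ratio of TPM was 3.32 and 3.55 in control cells against 3.12 and 2.08 in depleted cells. The AXL to MET ratio was 11.3 and 10.6 in control cells against 6.74 and 8.02 in depleted cells, a difference of -0.51 in the mean log2 ratio of TPM + 1. In both ratios each depleted library was below each control. With the coding-length trend removed the AXL to MET difference was -0.74, and that of EGFR to ERBB2 went from -0.41 to -0.43. The IGF1R to INSR ratio was 6.93 and 7.17 in control cells against 8.17 and 4.45 after depletion, and that of ERBB3 to ERBB2 was 0.526 and 0.180 against 0.277 and 0.378. These last ratios overlapped between the groups. With 2 libraries against 2, an exact two-sided permutation test cannot give a p below 0.333. It gave that value for EGFR to ERBB2 and AXL to MET, and 1 for the others (0.667 and 1 adjusted over the 4 ratios).

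**Figure D4:**
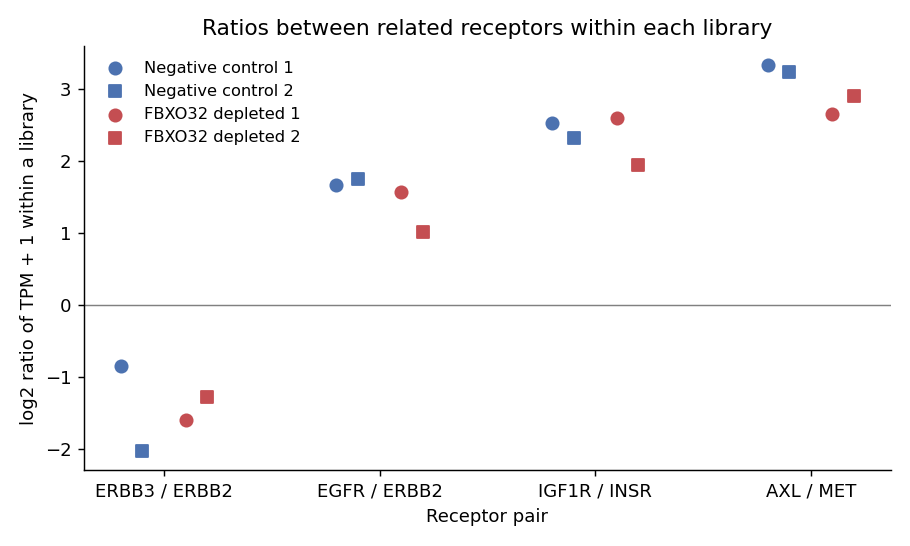
Log2 ratio of TPM + 1 between 4 pairs of receptors in each library, negative controls in blue and FBXO32-depleted libraries in red. The red points lie below the blue ones for EGFR to ERBB2 and for AXL to MET and overlap them for the other pairs.

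Among the other 48 receptor tyrosine kinases of the table, 10 were listed at 0 in every library and 19 were high enough to test. Of these 19, 1 fell and 0 rose, where 19.5% and 6.21% of all tested genes did, and 18 missed the threshold. The median log2 fold change was 0.27, against -0.16 over all tested genes. The one that fell was FGFR2, a relative of FGFR1, which had 4.13 and 5.96 TPM in control cells and 0.04 and 0.87 TPM in depleted cells. Its log2 fold change was -2.10 ± 0.46 (adjusted p = 9.64e-05 by limma), where that of FGFR1 was -0.27 ± 0.44, and the difference between them was not tested. FGFR2 also passed with the coding-length trend removed (-1.46, adjusted p = 0.0278 by limma) and without any 1 library. PTK7 and EPHB2, picked after their values were seen as the most abundant of these receptors, had 15.7 ± 0.226 and 20.3 ± 0.956 TPM in the controls (SD, n = 2) and did not pass. With the length trend removed 5 of the 19 were higher, where 7.9% of all genes in that fit were. They were PTK7, MERTK, EPHA7, EPHB6 and LMTK3, from 1.19 for MERTK upwards on the log2 scale.

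Ligands and ligand-binding proteins of the insulin-like growth factor receptor included the largest group of partner genes that rose. Of the 5 tested genes on that list of 9, 3 rose, where 6.21% of all tested genes did, and 2 missed the threshold. The median log2 fold change was 1.24, against -0.16 over all tested genes. IGF2, a ligand of IGF1R and of an INSR isoform, rose from 9.54 and 10.3 TPM to 24.7 and 34.5 TPM (1.47 ± 0.45, adjusted p = 0.00783 by limma), and its reads may be shared with the readthrough gene INS-IGF2. The binding proteins IGFBP4 and IGFBP2, which hold IGFs outside the cell, rose by 1.24 ± 0.38 and 1.27 ± 0.39. IGFBP4 had 157.0 and 228.4 TPM in control cells and 387.2 and 520.8 TPM in depleted cells, so the groups did not overlap. The 3 calls ended without control 1 (limma adjusted p = 0.182, 0.276 and 0.278 for IGF2, IGFBP4 and IGFBP2) and without depleted 2 (0.101, 0.126 and 0.0639), and that of IGF2 ended without control 2 (0.0781). All 3 passed with the length trend removed, where 7.9% of all genes in that fit were higher.

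Other ligands of the members showed scattered changes. The counts below stand beside 6.21% of all tested genes that rose and 19.5% that fell. Of 5 tested ERBB ligands, NRG2, a neuregulin, fell from 4.01 and 3.33 TPM to 1.23 and 0.76 TPM (-1.23 ± 0.47, adjusted p = 0.0365 by limma), a call that ended whichever library was left out (limma adjusted p from 0.0685 to 0.270), with the length trend removed (0.367) and with median-ratio scaling (0.0568). The other 4 did not pass, among them EREG, picked after its values were seen as the most abundant ERBB ligand, at 70.9 and 102.9 TPM in control cells and 140.5 and 137.9 TPM after depletion. None of the 3 tested ligands of MET and AXL passed, and PROS1, GAS6 and HGF had log2 fold changes of -0.06, -0.25 and 0.65. HGF, the MET ligand, passed with the length trend removed, at 1.22 (adjusted p = 0.0379 by limma). FGF5 rose from 2.83 and 4.05 TPM to 9.01 and 15.1 TPM (1.53 ± 0.47, adjusted p = 0.00857 by limma), and the other tested fibroblast growth factor did not pass. Of 7 tested ephrins, EFNA1, a ligand of EPHA2, rose by 1.07 ± 0.42 (adjusted p = 0.0471 by limma). Among 6 tested collagen chains, COL3A1 rose by 1.22 ± 0.44 (adjusted p = 0.0280 by limma) and COL1A1, a ligand of DDR1, fell by 1.37 on the log2 scale (adjusted p = 0.00578 by limma). Of 13 tested coreceptors, CD44, which presents growth factors to MET and ERBB receptors, fell from 2959.7 and 2218.7 TPM to 1338.4 and 1257.6 TPM (-0.98 ± 0.35, adjusted p = 0.0243 by limma). Without control 1 the calls of FGF5, EFNA1, COL3A1, COL1A1 and CD44 all ended (limma adjusted p = 0.223, 0.409, 0.265, 0.222 and 0.349). They ended too without control 2 (0.0519, 0.101, 0.118, 0.0512 and 0.0737). Without depleted 2 those of FGF5, EFNA1, COL3A1 and CD44 ended (0.186, 0.206, 0.0611 and 0.155), and without depleted 1 those of COL3A1 and CD44 (0.0778 and 0.0671). With the length trend removed those of EFNA1, COL1A1 and CD44 ended (0.124, 0.391 and 0.238). Median-ratio scaling ended that of CD44 (0.148), and a fit without the variance trend those of EFNA1 and CD44 (0.0586 and 0.0844).

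Proteins that process the receptors or pass on their signal came next. Of 8 tested convertases and sheddases 0 passed at limma's adjusted threshold, and 1, ADAM10, had an unadjusted p under 0.05. FURIN, which cuts the precursors of MET, IGF1R and INSR, had 42.2 and 33.6 TPM in control cells and 55.5 and 65.5 TPM after depletion, and ADAM9 and ADAM10 had log2 fold changes of 0.37 and 0.84. These 3 of the 8 passed on the higher side with the length trend removed, where 7.9% of all genes in that fit did. FURIN was at 1.29, ADAM9 at 1.01 and ADAM10 at 1.43 (limma adjusted p = 0.0113, 0.0342 and 0.00621). Of 17 tested adaptors 4 fell and 0 rose, where 19.5% of all tested genes fell, and the median log2 fold change was -0.23. They were VAV2 (-1.69 ± 0.48), FRS3 (-1.49 ± 0.44), GAB2 (-1.34 ± 0.47) and PLCG1 (-1.25 ± 0.47). FRS3 had 3.03 and 1.5 TPM in control cells and 0 and 0.27 TPM in depleted cells. GAB2 had 4.11 and 4.81 TPM in control cells and 1.62 and 0.78 TPM in depleted cells. At a minimum of 5 TPM, where FRS3 and GAB2 were not tested, 2 of 13 adaptors fell. FRS3 is an FGF receptor docking protein, GAB2 a GRB2-bound docking protein and PLCG1 phospholipase C gamma 1. GRB2 and SHC1, the core adaptors, picked after their values were seen, did not pass and had log2 fold changes of 0.02 and 0.27. With the length trend removed 0 adaptors fell and 1 rose, where 12.8% and 7.9% of all genes in that fit did. Median-ratio scaling ended the PLCG1 call (adjusted p = 0.0580 by limma). Leaving out any 1 library, which leaves 1 in a group, ended some or all of the adaptor calls. Calls over all tested genes became fewer too, except for lower calls without depleted 1. The median log2 fold change of the adaptors was then -0.23 without control 1, -0.15 without control 2, -0.61 without depleted 1 and 0.06 without depleted 2.

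Of 17 tested inhibitors of receptor kinases 5 fell and 0 rose, where 19.5% of all tested genes fell, and the median log2 fold change was -0.68. With the length trend removed the median was 0.0147, and 4 were lower and 2 higher, where 12.8% and 7.9% of all genes in that fit were. SH3KBP1 and CD2AP, related adaptors that link the ubiquitin ligase CBL to the endocytosis of EGFR and MET, fell together. SH3KBP1 had 120.6 and 91.1 TPM in control cells and 32.0 and 18.4 TPM in depleted cells (-2.07 ± 0.41, adjusted p = 1.34e-05 by limma). CD2AP had 36.5 and 25.0 TPM in control cells and 8.14 and 5.89 TPM in depleted cells (-1.98 ± 0.45, adjusted p = 0.000193 by limma). Both calls held with the length trend removed (-1.56 and -1.49) and ended without control 1 (limma adjusted p = 0.0762 and 0.106). GRB10, an inhibitor of INSR and IGF1R, had 23.5 and 110.3 TPM in control cells and 11.1 and 9.34 TPM in depleted cells (-2.22 ± 0.44), and its call ended without control 2 (adjusted p = 0.172 by limma) and with the length trend removed (0.125). CBLB, a ubiquitin ligase of receptor kinases, and the phosphatase gene PTPN2 fell with log2 fold changes of -1.61 ± 0.48 and -1.26 ± 0.41. The CBLB call ended without control 1, control 2 or depleted 1 (limma adjusted p = 0.0835, 0.0807 and 0.0659), and that of PTPN2 without control 1 or depleted 2 (0.409 and 0.181). The CBLB call ended with the length trend removed as well (adjusted p = 0.168 by limma). Calls over all tested genes also became fewer when 1 library was left out, except for lower calls without depleted 1. The median log2 fold change of the inhibitors was -0.62 without control 1, -0.74 without control 2, -0.59 without depleted 1 and -0.57 without depleted 2.

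In the endocytic sorting list 4 of 18 tested genes fell and 1 rose, where 19.5% and 6.21% of all tested genes did, and the median log2 fold change was -0.39. HGS, the ESCRT-0 subunit that gathers ubiquitinated receptors on endosomes, had 596.3 and 274.3 TPM in control cells and 59.4 and 51.3 TPM in depleted cells. Its log2 fold change was -2.85 ± 0.39 (adjusted p = 3.12e-11 by limma), and it passed without any 1 library and with the length trend removed (-2.24). VPS4B, an ATPase that recycles ESCRT complexes, had 72.9 and 37.1 TPM in control cells and 13.2 and 4.44 TPM after depletion (-2.59 ± 0.45, adjusted p = 2.42e-07 by limma). USP8, a deubiquitinase that acts on EGFR at endosomes, had 48.2 and 32.6 TPM in control cells and 17.4 and 10.2 TPM after depletion (-1.496 ± 0.44, adjusted p = 0.00532 by limma). CLTA, a clathrin light chain, fell by 1.10 on the log2 scale, and AP2S1, the small subunit of the AP2 adaptor, rose by 1.06 ± 0.37. Without control 1 the calls of VPS4B, USP8, CLTA and AP2S1 ended, and calls over all tested genes became fewer too. Without depleted 2 those of USP8, CLTA and AP2S1 ended, and that of AP2S1 ended without depleted 1. With the length trend removed 3 fell and 0 rose, where 12.8% and 7.9% of all genes in that fit did. The median of the list turned to 0.27 there, and the calls of USP8 and AP2S1 ended (limma adjusted p = 0.200 and 0.0980). Median-ratio scaling ended the CLTA call (0.0870), and a fit without the variance trend that of AP2S1 (0.0589).

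**Figure D5:**
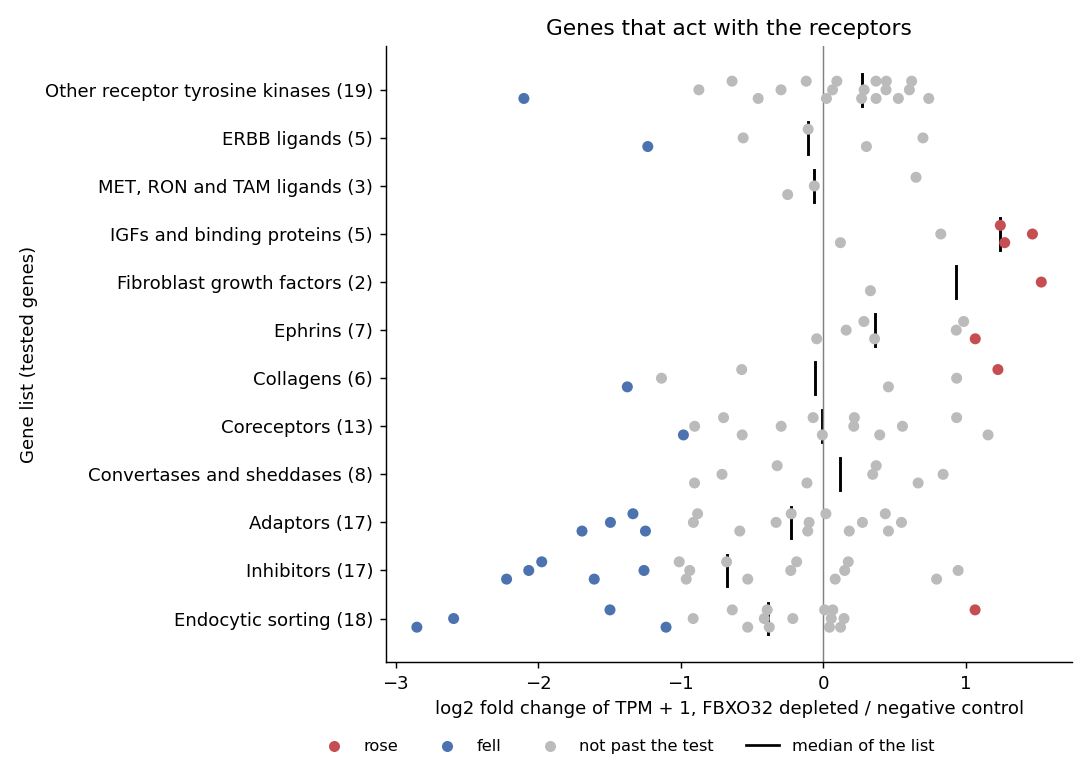
Log2 fold change of TPM + 1 between FBXO32-depleted and negative control libraries for the tested genes of each list, the number of which is in brackets. Red points rose, blue points fell, grey points did not pass the test, and black bars are list medians, from 1.24 for insulin-like growth factors and their binding proteins to -0.68 for inhibitors.

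Of 101 tested genes on the 11 lists of ligands and intracellular partners 7 rose and 16 fell, beside 722 and 2268 of the 11623 genes tested in all, and with median-ratio scaling 12 rose and 12 fell. Without the filter on low values 1 rose and 8 fell, and the calls of NRG2, IGFBP2, IGFBP4, FGF5, EFNA1, COL3A1, CD44, GAB2, PLCG1, GRB10, PTPN2, CLTA, AP2S1 and USP8 ended. KRT8, a keratin of simple epithelia, stood at 505.6 and 476.0 TPM in control cells, while EPCAM was at 1.87 and 3.64 TPM and KRT7 at 0.885 and 1.64 TPM. Summed over the 6 epithelial and mesenchymal markers, the controls had 3531.7 and 3439.5 TPM and the depleted libraries 2799.4 and 979.2 TPM. Of these 6, KRT8, KRT18 and VIM fell past the test, where 19.5% of all tested genes fell. Log2 fold changes were above 0 for 2 of the 6, the highest 1.10. With the length trend removed 1 of the 6 was lower, where 12.8% of all genes in that fit were. The part of these markers in the results above was not tested. Of 16 markers of leukocytes, endothelium, fibroblasts and endocrine or acinar pancreas, 6 were at 0 in all libraries, among them PTPRC and CD3E of leukocytes and INS of beta cells, and 3 were tested. Of those 3, LYZ and COL1A1 fell and CD68 did not pass.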

How the data were processed

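The TPM values were computed by the authors, per the file headers, and each deposited column sums to 1000000. Per the submitters' processing notes the tools were fastp, Bowtie2 2.2.8, STAR, RSEM and DESeq2 on GRCh38, with no roles given. Columns named NS were read as negative control and KO as FBXO32 depleted. Of 20307 genes, 19702 had a symbol in the gene name table. Positions and longest coding sequences came from GENCODE release 29, which need not be the authors' annotation.

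From the deposited values log2(TPM + 1) was tested with limma 3.58.1 (R 4.3.3, trend and robust moderation) without covariates on the 11623 genes that reached 1 TPM in 2 or more libraries, and adjusted over all of them. The pooled spread dominates these p-values, which measure variation between libraries called bioreplicates whose cultures are not described further. The code was tested on simulated data. Fold changes of low genes are understated by the pseudocount of 1. The length trend was a lowess fit (span 0.667) of each library's deviation on log2 coding length.

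Members and lists were chosen with earlier results of these data known. Named are all members, FBXO32, the called genes of each list and direction (beyond 5, the 3 with the smallest p) and, for lists without calls, up to 3 tested genes with the highest mean TPM. Exceptions are marked.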

Additional observations from a re-analysis of the deposited data

How the results depend on the processing

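No member passed under any alternative except MET with the coding-length trend removed, where 1 member was higher. That setting also turned EGFR to 0.62, FGFR1 to 0.40, EPHA2 to 0.58 and DDR1 to 0.37, gave 5 other receptors and 15 partner genes higher, 7 partner genes lower and 1479 genes lower in all, and median-ratio scaling turned EPHA2 to 0.0431. The cause of the length trend was not tested. Median-ratio scaling moved the median of all genes from -0.16 to 0.02, with 1251 genes (12 partners) higher and 1904 (12 partners) lower. Without the filter on low values 207 genes (1 partner) were higher and 1322 (8 partners, 2 other receptors) lower, and at a minimum of 5 TPM, where INSR and FGFR2 were not tested, 0 other receptors were lower. Leaving out 1 library gave 37 to 646 genes higher and 347 to 2389 lower, with 0 to 5 partners higher and 2 to 13 lower. The ranges of log2 fold change were then -0.0207 to 0.39 for ERBB2, -0.55 to 0.91 for ERBB3, -0.12 to 0.20 for AXL, -0.46 to 0.55 for IGF1R, -0.20 to 0.60 for INSR, -0.33 to 0.0087 for EPHA2 and -0.71 to 0.0399 for DDR1. The ERBB3 to ERBB2 difference of -0.0052 became 0.0598 with a pseudocount of 0.1 and 0.0276 with the trend removed. Same-numbered libraries did not deviate together (correlation -0.049), and with the replicate block 489 genes were higher, 1930 lower and 0 members passed. The block ended the calls of NRG2, EFNA1 and COL3A1 (limma adjusted p = 0.0559, 0.0696 and 0.0505). TPM gives no depth, so the precision of ERBB3 and INSR, the lowest members, is unknown.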
